A study of Mus musculus with 6 samples.

Results

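The 2 control libraries of a CRISPR experiment in mouse stem-like medulloblastoma cells were described here by how much RNA of each gene they hold. They are the libraries of guide sgGal4-4, 2 of the 6 in the series, and no other library enters a value below except in choosing which transcript stands for a gene. Medulloblastoma is a tumour of the cerebellum. The cells came from cerebellum, carried the genotype Math1-Cre; SmoM2 and are marked WT in the labels. WT is read here as referring to the guide, since that genotype is not wild type. Gal4 is a yeast transcription factor, so the guide has no target of that name in the mouse. In this genotype a Cre recombinase driven by Math1 (the older name of Atoh1, a transcription factor of granule neuron progenitors) switches on SmoM2, an active form of the Hedgehog transducer Smoothened. Both libraries carry that allele, so no library here shows these cells without it. The labels do not say whether the 2 libraries came from separate cultures or from 1 line, so the spread between them may be technical.

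Levels are TPM, in which a gene's reads are divided by the length of its transcript and then by the total of such values in the library, and each value is given for replicate 1 and then replicate 2. A gene was called detected at 1 TPM or more in both libraries. Of 24063 gene symbols, 11777 (48.9%) were detected, and 7609 (31.6%) had 0 counts in both libraries. The remaining 4677 (19.4%) had some counts but fell under 1 TPM in at least 1 library. Counts of detected list members below are to be read beside the 48.9%. Among detected genes the median level was 19.0 TPM, and 7897 symbols reached 10 TPM, 1275 reached 100 TPM and 92 reached 1000 TPM in both libraries. The libraries held 28403338 and 28458935 counts over all transcript rows, and 18438909 and 18457006 over the 1 row kept per symbol. A count of 0 in a library allows up to 3 counts, or 0.163 CPM (counts scaled to the library's total, here of the kept rows), and this limit covers counting error only. Of 7891 transcripts of at least 200 bases with a mean of 10 TPM or more, 79.6% agreed within 1.1-fold between the libraries and 3 differed by more than 1.5-fold. With 1 group of 2 libraries no test was made, and the results are levels with their SD.

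Granule neuron progenitors of the cerebellum divide in response to Sonic hedgehog and switch on Atoh1, Zic and Barhl genes, and they are the usual cell of origin of Hedgehog-driven medulloblastoma. Neural stem cells and radial glia instead carry Sox2, Nes (an intermediate filament), Fabp7 (a brain fatty acid-binding protein) and Slc1a3 (a glutamate transporter shared with astrocytes). In the Hedgehog pathway a ligand binds the receptor Ptch1, which releases Smoothened to activate the Gli transcription factors, and Gli1, Ptch1 and Hhip are themselves targets of the pathway.

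Lineage genes with CpG-rich promoters lay at both ends of the scale. Sox2, a stem cell factor, stood at 140 and 135 TPM, and Olig2, a bHLH factor of progenitors and oligodendrocyte lineage cells, stood at 629 and 604 TPM. Atoh1, whose older name Math1 the genotype carries, and En1, a homeobox gene of the midbrain and anterior hindbrain, had 0 counts in both libraries. The windows around their start sites (RefSeq, GRCm38.p6, 250 bases before to 50 after the start, 5′ to 3′ along the gene) are shown because all 4 are rich in CpG dinucleotides, which are in capitals.
Sox2, chr3:34649745-34650044 (+): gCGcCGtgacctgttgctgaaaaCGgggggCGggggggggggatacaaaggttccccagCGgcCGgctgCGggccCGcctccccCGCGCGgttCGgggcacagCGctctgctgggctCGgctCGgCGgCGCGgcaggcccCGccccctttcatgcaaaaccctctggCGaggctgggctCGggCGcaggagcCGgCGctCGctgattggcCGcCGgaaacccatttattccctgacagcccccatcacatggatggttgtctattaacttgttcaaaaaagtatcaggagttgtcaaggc
Olig2, chr16:91225300-91225599 (+): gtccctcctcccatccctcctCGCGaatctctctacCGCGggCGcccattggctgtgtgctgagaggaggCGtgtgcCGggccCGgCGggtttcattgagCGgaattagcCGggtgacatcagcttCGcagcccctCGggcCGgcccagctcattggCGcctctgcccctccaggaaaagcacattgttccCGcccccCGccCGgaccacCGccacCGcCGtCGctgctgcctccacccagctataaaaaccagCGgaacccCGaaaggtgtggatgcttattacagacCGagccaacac
Atoh1, chr6:64728875-64729174 (+): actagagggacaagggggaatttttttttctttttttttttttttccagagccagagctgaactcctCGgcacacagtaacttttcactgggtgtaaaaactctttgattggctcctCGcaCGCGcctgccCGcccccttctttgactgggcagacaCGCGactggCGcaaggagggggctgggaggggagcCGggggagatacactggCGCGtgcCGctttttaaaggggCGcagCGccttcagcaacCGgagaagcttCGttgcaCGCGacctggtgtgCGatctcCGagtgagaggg
En1, chr1:120602237-120602536 (+): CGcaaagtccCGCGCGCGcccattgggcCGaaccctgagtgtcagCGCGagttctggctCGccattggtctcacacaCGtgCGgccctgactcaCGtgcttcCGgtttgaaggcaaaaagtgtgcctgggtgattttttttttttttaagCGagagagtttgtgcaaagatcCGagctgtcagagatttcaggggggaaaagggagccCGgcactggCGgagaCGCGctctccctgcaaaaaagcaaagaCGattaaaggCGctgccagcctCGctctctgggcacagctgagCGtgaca
The ratio of observed to expected CpG was 0.819 for Sox2, 0.815 for Olig2, 0.840 for Atoh1 and 0.948 for En1, with 27, 25, 20 and 23 CpG dinucleotides in 300 bases. The 2 genes without a count had the higher ratios, which describes only these 4 chosen genes.

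Across all symbols CpG content and detection moved together. Of 14201 symbols with exactly 1 such window, 7.23% were detected where the ratio was at most 0.2, 43.7% where it lay between 0.4 and 0.6, and 90.4% where it was over 1.0. The share at 0 counts fell from 72.6% to 3.55% over the same range. Over a ratio of 0.8, 86.9% of 4039 symbols were detected and 4.48% were at 0 counts. Of the 136 members of the lineage, pathway and receptor lists with a ratio over 0.8, 90 were detected (66.2%) and 18 were at 0 (13.2%). These lists were chosen with earlier results of these data known, and the lower share is only a description of them. A reason for it was not tested. The 18 included Atoh1, En1, Hes5, Barhl2, Pax5, Neurog1, Emx1, Dlx2, Nkx6-1, Hoxa6 and Gdf10. Fabp7 and Vim went the other way, with ratios of 0.276 and 0.421 and more than 1200 TPM each in both libraries.

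**Figure D1:**
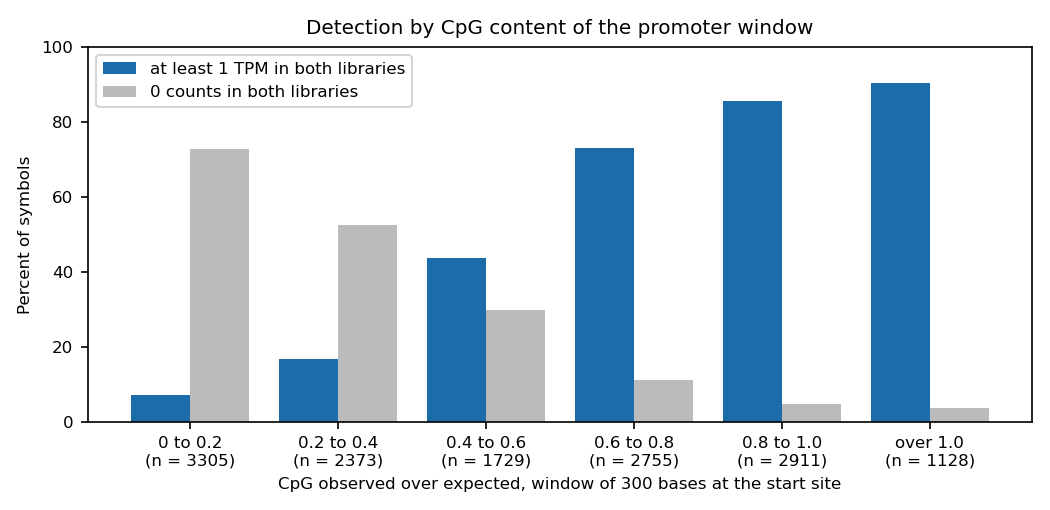
Percent of gene symbols detected at 1 TPM or more in both sgGal4-4 libraries (blue bars) and at 0 counts in both (grey bars), by the ratio of observed to expected CpG in the 300 bases around the start site (x axis, with the number of symbols). Detection climbs from 7.23% in the leftmost pair of bars to 90.4% in the rightmost.

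The most abundant messages were those of protein synthesis and the cytoskeleton. Eef1a1, which brings aminoacyl-tRNA to the ribosome, stood at 6905 and 7330 TPM, and Tmsb4x, an actin-binding peptide, at 5905 and 5902 TPM. Of the 100 highest genes 50 encoded cytosolic ribosomal proteins, among them Rpl41 (2712 and 2381 TPM), Rps18 (2411 and 2378 TPM) and Rplp0 (2269 and 2285 TPM). The 87 listed ribosomal protein genes, 83 of them detected, had a median of 1143 TPM and held 14.1% and 13.6% of all TPM in the kept rows. When genes were ranked by counts, which are not divided by length, 13 of the 100 highest were ribosomal. The glycolysis list was detected in full (14 of 14, median 354 TPM), and the 100 nuclear-encoded respiratory chain genes had 95 detected with a median of 167 TPM.

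Several of the highest genes outside those housekeeping classes are known from brain progenitors and glia. Ckb, the brain creatine kinase, was the fifth highest row at 4359 and 4372 TPM. Igfbp2, a secreted binding protein for insulin-like growth factors, stood at 1681 and 1619 TPM. Serpine2, a secreted protease inhibitor, stood at 1307 and 1386 TPM, and Dbi, an acyl-CoA-binding protein, at 1340 and 1226 TPM. Fabp7 stood at 1306 and 1313 TPM. Lower in the same ranking were Scd2, a fatty acid desaturase, at 827 and 798 TPM and the tetraspanin Cd81 at 800 and 766 TPM. For all of these the libraries lay within 1.1-fold of each other.

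Some of the highest rows do not measure what their names say. Mir5121, the highest row of all, had 7446 and 7900 TPM from 6926 and 7416 counts, and Mir3962, the third, had 5823 and 6255 TPM from 1464 and 1587 counts. A library of mRNA does not measure mature miRNAs, and these rows are very short, at 74 and 20 bases, so that few counts give a high value per length. Mir5121 lies on the minus strand of chromosome 7, at chr7:45126918-45126991 (GRCm38.p6). There it overlaps, on the same strand, annotated exons of the ribosomal protein gene Rpl13a, of Snord33 and of Gm45713. Mir5114, at 4052 and 3987 TPM, overlaps an exon of Scd2 at chr19:44303171-44303231. The row named Mir3962 is as long as that gene's mature miRNA and overlapped no GENCODE exon of another gene. Both mature sequences (RefSeq) are given to show how little sequence the names stand for, with the seed, bases 2 to 8, in capitals.
Mir5121 mature: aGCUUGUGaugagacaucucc
Mir3962 mature: aGGUAGUAguuuguacauuu
The 501 rows under 200 bases held 5.14% and 5.47% of the TPM in the kept rows. They took 7 of the 100 highest places, and all 7 were rows of miRNA genes. Of the 10 highest rows with a noncoding accession, 6 were of miRNA genes and 3 were annotated as transcribed pseudogenes (Gm1821, Gm15772 and Gm10052). The other 1 was a transcript of Fth1, the ferritin heavy chain. Gm15772 had exactly the counts of Rpl26, 9584 and 10118, so those reads cannot be assigned to either gene. Rn45s, the ribosomal RNA precursor, held 0.467% and 0.379% of counts in the kept rows.

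Neural stem cell and radial glia markers were the most completely detected lineage list. Of 21 members 17 were detected (81.0%, against 48.9% of all symbols), all 17 at 10 TPM or more and 8 of them at 100 TPM or more. The list median was 63.0 TPM. The highest were Fabp7, Vim (the intermediate filament vimentin, 1238.5 and 1290 TPM), Slc1a3 (713 and 716 TPM), Tnc (the matrix protein tenascin C, 601 and 531 TPM) and Nes (303 and 267 TPM). Behind them came Ptprz1, a receptor phosphatase, at 144 and 134 TPM, Hes1, a Notch-responsive repressor, at 138 and 138 TPM, and Sox2. The other SoxB1 genes, Sox3 (72.0 and 68.1 TPM) and Sox1 (38.4 and 36.2 TPM), were also present. The exceptions were Prom1, which encodes the surface antigen CD133, Fut4, an enzyme that makes the antigen CD15, Hes5, a Notch target, and Nr2e1. Prom1, Fut4 and Hes5 were at 0 counts, and Nr2e1 (the orphan receptor Tlx) had 1 and 4 counts.

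Granule neuron progenitor markers were present in part. Of 15 members 9 were detected (60%, against 48.9% of all symbols), with a list median of 4.54 TPM, and none reached 100 TPM. The detected members were Nfib (63.2 and 55.7 TPM), Zic1 (24.5 and 22.4 TPM), Nfia (23.2 and 21.5 TPM), the chemokine receptor Cxcr4 (20.5 and 24.1 TPM), Pax6 (15.4 and 15.6 TPM), Meis1 (12.4 and 11.5 TPM), Zic2, Zic5 and Meis2. Atoh1 (chr6:64729125-64731245) and Barhl2 had 0 counts, Barhl1 had 1 and 3 counts and Insm1 had 7 and 9 counts. Nfia, Nfib, Pax6 and Meis1 are factors that other neural progenitors also carry. RNA of Atoh1, for which the Cre driver of the genotype is named, was thus not detectable at this depth.

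Genes of differentiated neurons were nearly all low. Of 16 granule neuron genes 2 were detected, Etv1 (33.9 and 32.5 TPM) and Neurod1, which sat just above the threshold at 1.05 and 1.07 TPM on 33 and 34 counts. Gabra6, Fat2, Neurod2, Nhlh1 and Nhlh2 were among 8 at 0 counts. Of 13 general neuronal genes 3 were detected, and Map2, a microtubule-associated protein, was far above the others at 208 and 210 TPM. Tubb3 had 4 and 3 counts and Dcx had 6 and 6, while Stmn2, Syt1 and Nefl were at 0. Elavl3 lay at the threshold, at 0.997 and 1.18 TPM. Of 19 genes of cerebellar GABAergic neurons and Purkinje cells 7 were detected, among them the calcium channel Itpr1 at 6.14 and 4.65 TPM, and Ptf1a, Skor2, Calb1 and Gad2 were at 0. Of the other rhombic lip genes, Wls, which escorts Wnt proteins to the cell surface, stood at 92.2 and 99.7 TPM, and Eomes, Lmx1a, Lhx9 and Olig3 were at 0.

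Astrocyte and Bergmann glia markers ranged from among the highest genes to 0 counts. Of 16 members 10 were detected (62.5%, against 48.9% of all symbols), and 6 of these reached 100 TPM in both libraries. Apoe, a lipid carrier, stood at 1051 and 967 TPM (mean 1009 ± 58.8, SD, n = 2), Aldoc, a brain aldolase, at 459 and 445 TPM and Sparcl1, a secreted matrix protein, at 299 and 299 TPM. Glul, glutamine synthetase, stood at 268 and 252 TPM and Fgfr3 at 177 and 172 TPM. The other detected members were lower, with the calcium-binding protein S100b at 17.003 and 17.9 TPM, the glutamate transporter Slc1a2 at 14.5 and 13.1 TPM, Clu at 3.92 and 3.23 TPM and Aldh1l1 at 2.06 and 2.20 TPM. Gfap, the defining filament of mature astrocytes, had 17 and 12 counts (0.498 and 0.348 TPM), Aqp4 stood at 0.892 and 0.822 TPM, and Gja1, Gjb6 and the Bergmann glia gene Gdf10 were at 0 counts.

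Of 7 oligodendrocyte progenitor genes 3 were detected. Olig1 (690 and 690 TPM) and Olig2 were the highest of all 166 transcription factor genes in the listed families, above 98.5% of detected genes. The proteoglycan Cspg4 stood at 26.9 and 23.2 TPM. Pdgfra had 1 count in each library, Sox10 had 1 and 3, Gpr17 had 0 and 3 and Nkx2-2 had none. Of 8 oligodendrocyte genes only Cnp was detected, at 23.5 and 23.1 TPM, with Mbp at 1 and 6 counts and Mag, Mog, Mobp and Opalin at 0.

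Markers of cells from outside the neural lineage were mostly under 1 TPM. Of 12 microglia and leukocyte genes 2 passed 1 TPM, Cd68 (1.91 and 2.02 TPM) and Tmem119 (1.30 and 1.52 TPM), the list summed to 3.69 and 3.70 TPM, and C1qa, C1qb, C1qc, Cx3cr1 and Trem2 were at 0. The 8 endothelial genes summed to 2.72 and 3.15 TPM, with Tek detected at 1.51 and 1.56 TPM and Kdr and Cldn5 at 0. The 7 pericyte and smooth muscle genes summed to 1.74 and 1.99 TPM, with Des detected at 1.06 and 1.003 TPM and Rgs5, Kcnj8 and Abcc9 at 0. Of 6 fibroblast genes Foxc1 (8.73 and 9.03 TPM) and Col1a1 (3.20 and 2.52 TPM) were detected, but Lum was at 0 and Dcn had 2 and 3 counts. In bulk RNA few cells of a type and little RNA per cell cannot be told apart. Of 9 pluripotency and germ cell genes Nanog alone passed, at 1.76 and 1.57 TPM, while Pou5f1 had 1 and 0 counts. Of 8 neural crest and Schwann cell genes 3 were detected, with Ednrb the highest at 8.94 and 10.4 TPM, and Foxd3 was at 0.

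**Figure D2:**
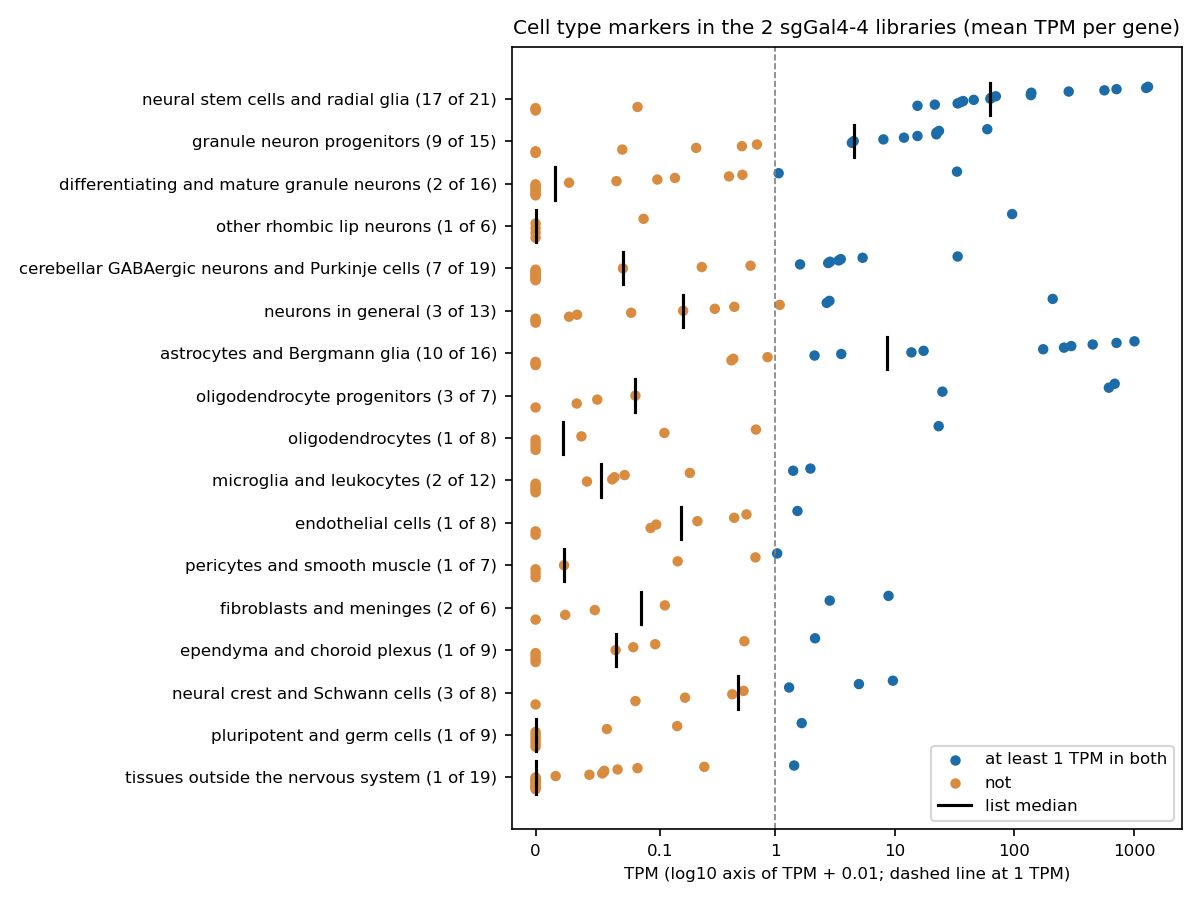
Mean TPM over the 2 sgGal4-4 libraries of each marker gene (x axis, log10 of TPM + 0.01) in 17 cell type lists (y axis, with members detected of all). Blue points are genes at 1 TPM or more in both libraries, orange points are the others and black bars are list medians. The neural stem cell list sits highest, with a median of 63.0 TPM, and the lists of vessels, blood and other tissues sit left of the dashed line at 1 TPM apart from 1 or 2 genes each.

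None of the 3 Hedgehog ligands was detected. Shh had 0 counts, Ihh had 4 and 1 and Dhh had 2 and 0. Of the 8 ligand and release genes only Disp1, which exports the lipid-modified ligand, was detected, at 13.2 and 11.9 TPM.

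The receiving side of the pathway was present almost in full. Of 11 receptors and coreceptors 9 were detected, and Gas1, a coreceptor, was the highest at 254 and 248 TPM. Smo (chr6:29735497-29761366) stood at 161 and 162 TPM (mean 162 ± 0.812, SD, n = 2), above 93.8% of detected genes. Reads of the SmoM2 allele and of endogenous Smo fall in the same row and cannot be told apart here. Ptch1, both receptor and target, stood at 29.5 and 26.6 TPM, the coreceptor Boc at 19.8 and 20.5 TPM, and the ciliary receptor Gpr161 at 12.8 and 13.8 TPM. Evc2 and Evc, which form a complex at the base of the cilium, stood at 8.13 and 7.21 TPM and at 6.49 and 5.59 TPM, while the third coreceptor, Cdon, was lower at 1.79 and 2.11 TPM. Lrp2 lay below the threshold at 0.247 and 0.296 TPM.

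Of 18 transducers 17 were detected. Those with wider roles were the highest, led by the kinase Csnk1a1 (299 and 310 TPM) and the catalytic subunit of protein kinase A, Prkaca (128 and 120 TPM). Spop, an adaptor that marks Gli proteins for degradation, stood at 52.5 and 51.3 TPM. Sufu, the inhibitor that holds Gli proteins in the cytoplasm, stood at 14.8 and 12.8 TPM, and Kif7, its ciliary motor partner, at 8.42 and 9.23 TPM. The kinase Stk36 fell just short at 0.958 and 0.828 TPM. The 3 Gli genes lay close together, with Gli3 at 8.89 and 6.998 TPM, Gli2 at 7.70 and 6.44 TPM and Gli1 at 7.08 and 6.50 TPM. Gli3 was the highest of the 3 in each library, Gli2 and Gli1 changed order between the libraries, and the ranges of all 3 over the 2 libraries overlap. Gli1 (chr10:127329882-127341579) was above 22.3% of detected genes, against 93.8% for Smo, and its span overlaps that of Arhgap9, whose reads cannot be separated where strand is not kept.

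Hedgehog targets ranged over the whole scale. Of 19 members 12 were detected (63.2%, against 48.9% of all symbols), with a list median of 6.71 TPM. The D-type cyclins Ccnd1 (376 and 366 TPM) and Ccnd2 (226 and 214 TPM) were the highest, and both are also driven by other pathways. Below them came Bmi1, a Polycomb gene (62.2 and 66.6 TPM), the mitotic factor Foxm1 (33.8 and 33.9 TPM), Ptch1, and Eya1 (14.7 and 15.3 TPM). Foxf1 stood at 9.51 and 9.36 TPM and the survival gene Bcl2 at 8.74 and 9.16 TPM. Mycn, the Myc family member usual in granule progenitors, stood at 7.11 and 6.32 TPM, Hhip, a decoy receptor, at 2.37 and 1.74 TPM and Foxf2 at 1.41 and 1.97 TPM. Atoh1, Sfrp1 and Pdlim3 had 0 counts, Snai1 had 0 and 2, Igf2 had 2 and 6 and Jag2 had 7 and 9. The more direct readouts, Gli1, Ptch1 and Hhip, thus lay between 1.74 and 29.5 TPM in single libraries.

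**Figure D3:**
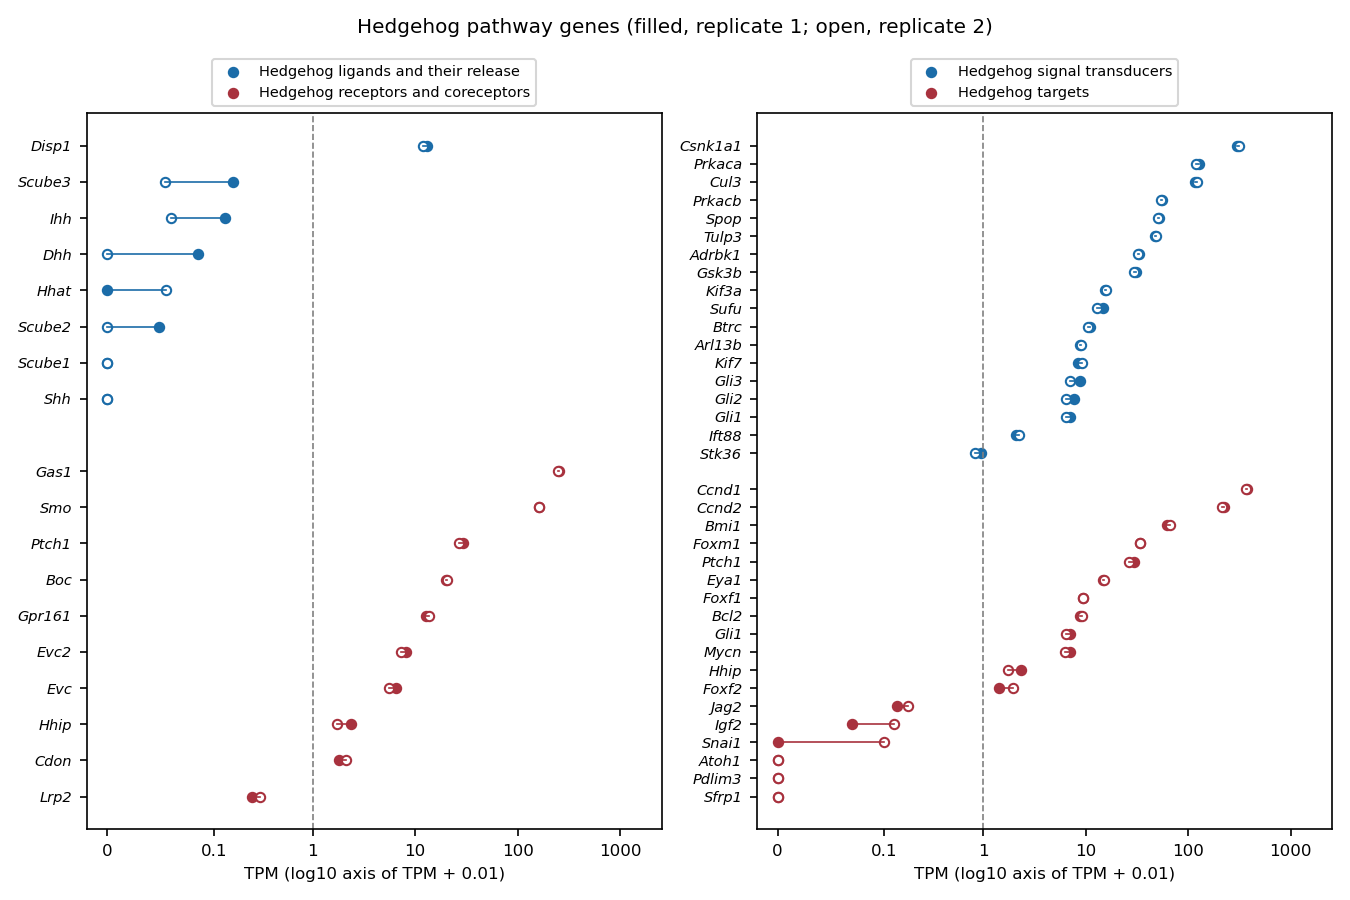
TPM of the Hedgehog pathway genes reported here (y axis) in replicate 1 (filled) and replicate 2 (open) of the sgGal4-4 libraries, on a log10 axis of TPM + 0.01 with a dashed line at 1 TPM. Ligand and release genes lie left of the line except the release gene Disp1, receptors and transducers lie mostly right of it, and targets spread from 0 to 376 TPM.

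Markers that sort human medulloblastoma into subgroups were mixed. Of 5 SHH subgroup genes, Eya1 and Hhip were detected and Atoh1, Sfrp1 and Pdlim3 were at 0. Of 5 WNT subgroup genes 4 were detected: Tnc, Wif1 (53.3 and 53.7 TPM), Emx2 (10.04 and 8.47 TPM) and Gad1 (2.63 and 3.12 TPM). Wif1 is a secreted Wnt inhibitor. Of 5 group 3 genes none was detected, and of 6 group 4 genes only Rbm24 was (25.7 and 24.1 TPM). These lists are short, and Tnc also belongs to the stem cell list and Gad1 to the list of GABAergic neurons.

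Regional identity genes of several positions along the neural axis were detected. Of 14 midbrain and isthmus factors 4 were detected: En2 (12.6 and 11.8 TPM), Gbx2 (11.2 and 9.53 TPM), Otx2 (8.40 and 9.65 TPM) and Lmx1b (4.05 and 4.46 TPM). Otx2 and Gbx2 repress each other at the boundary of midbrain and hindbrain in the embryo, and their ranges over the 2 libraries overlapped here. En1, Pax5 and Wnt1 were at 0, and Fgf8 had 1 and 2 counts. Of 22 forebrain factors 3 were detected, Lhx2 (28.9 and 28.5 TPM), Emx2 and Otx1 (2.59 and 2.32 TPM), and 16 were at 0, including Six3, Rax and Nkx2-1. Among dorsal factors Zic1, Zic2, Zic5 and Msx1 (7.29 and 8.37 TPM) were detected, and Pax3, Lmx1a and Olig3 were at 0. Of 10 ventral factors Foxa1 (3.15 and 3.17 TPM) and Nkx6-2 (2.29 and 1.98 TPM) were detected, and Foxa2, Nkx2-2 and Nkx6-1 were at 0. Irx1, Irx2, Irx3 and Irx5 all lay between 8.07 and 13.2 TPM in single libraries, while Irx4 and Irx6 had no count.

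Hox genes mark the hindbrain behind the cerebellum and the spinal cord. They were detected for 5 of 39 members (12.8%, against 48.9% of all symbols). Of the 5 detected, 4 were in the Hoxa cluster on chromosome 6. Hoxa5 (chr6:52201754-52204587) stood at 33.6 and 28.7 TPM, Hoxa3 at 16.3 and 17.02 TPM, Hoxa10 at 10.7 and 11.1 TPM and Hoxa2 at 3.003 and 3.64 TPM. Hoxb3 was the fifth, at 2.32 and 2.37 TPM. The genes between them in the cluster were near or at 0, with Hoxa4 at 3 and 6 counts, Hoxa6 and Hoxa7 at 0 and Hoxa9 at 10 and 6 counts, so the detected genes did not form a continuous block. The annotated span of Hoxa3 covers those of Hoxa4, Hoxa5 and Hoxa6, and that of the noncoding gene Hoxaas3 overlaps Hoxa3, Hoxa5 and Hoxa6, so part of these counts may belong to a neighbour. Hoxd3 stood at 0.521 and 1.03 TPM and was detected in replicate 2 alone. No Hoxc gene was detected.

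**Figure D4:**
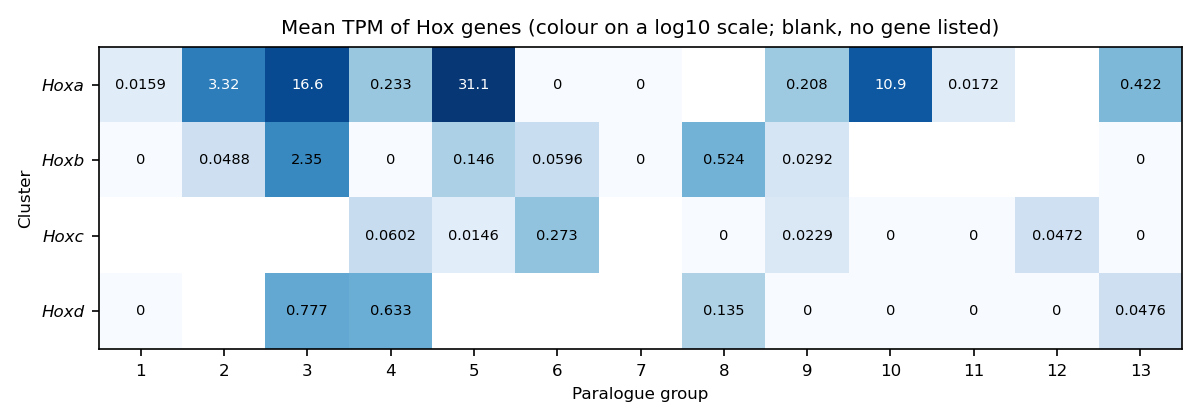
Mean TPM over the 2 sgGal4-4 libraries of the 39 Hox genes, by cluster (rows) and paralogue group (columns), with colour on a log10 scale. The dark cells are Hoxa2, Hoxa3, Hoxa5 and Hoxa10, and Hoxb3 is the one detected gene outside Hoxa.

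Of the 166 transcription factor genes in the listed families, 75 were detected, beside 48.9% of all symbols. After Olig1 and Olig2 came Hes6, a cofactor that opposes Hes1, at 233 and 223 TPM, then Hes1, Sox2, Id3 (130 and 130 TPM), Bhlhe40 (128 and 129 TPM), Myc and Id1 (130 and 125 TPM). The Id proteins block bHLH factors, and their usual bHLH partners Tcf4 (103 and 96.2 TPM), Tcf12 (86.3 and 89.5 TPM) and Tcf3 (80.2 and 78.2 TPM) were among the 20 highest. The Sox family had 12 of 19 detected, and Sox4 (123 and 112 TPM) and Sox8 (80.3 and 77.8 TPM) followed Sox2. All 4 nuclear factor I genes, all 4 Pou3f genes and all 7 Meis and Pbx genes were detected, among them Nfix (87.6 and 76.3 TPM), Pou3f3 (63.4 and 57.8 TPM) and Pbx2 (16.02 and 16.6 TPM). Of 9 Pax genes only Pax6 and Pax9 (6.27 and 5.57 TPM) were detected. Of 23 neural bHLH genes 9 were detected and 12 were at 0, among them Atoh1, Neurog1, Neurog3, Ptf1a and Olig3.

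Within the Myc network all 10 genes were detected, and Myc (127 and 129 TPM) was above Mycn in both libraries. Mxd3, a Max partner found in dividing progenitors, stood at 76.6 and 78.7 TPM and Max at 53.3 and 56.7 TPM. All 30 replication and mitosis genes were detected, with a median of 101 TPM. They included Cdk4 (598 and 572 TPM), the replication clamp Pcna (438 and 468 TPM), Top2a (204 and 209 TPM), Mcm6 (189 and 198 TPM) and Mki67 (56.9 and 50.5 TPM). Of 16 cell cycle inhibitors and tumour suppressors 14 were detected. Cdkn2a, which encodes p16 and p19Arf from alternative first exons, was the highest at 272 and 242 TPM (mean 257 ± 21.2, SD, n = 2). Trp53 stood at 95.2 and 97.4 TPM, its target Cdkn1a at 93.7 and 91.7 TPM and Cdkn1b at 86.8 and 91.4 TPM. Cdkn1c had 0 counts, and Cdkn2b, the neighbour of Cdkn2a, had 6 and 4.

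Receptor tyrosine kinases, the receptors of most peptide growth factors, were detected for 27 of 58 genes (46.6%, close to the 48.9% of all symbols). Fgfr3 (177 and 172 TPM) and Fgfr1 (132 and 127 TPM) were the highest, ahead of the collagen receptor Ddr1 (110 and 101 TPM), the Wnt coreceptor Ryk (97.1 and 96.9 TPM), Tyro3 (83.8 and 83.7 TPM), the neurotrophin receptor Ntrk2 (84.1 and 81.0 TPM), Ddr2 (76.0 and 74.8 TPM) and Egfr (78.0 and 71.5 TPM). Tyro3 and Ntrk2 could not be ordered, nor could Ddr2 and Egfr, since the ranges within each pair overlap. Of the same subfamilies, Fgfr4 had 1 count in each library and Erbb3 had 7 and 10. Kdr, Met, Ros1 and Musk were at 0, and Pdgfra, Pdgfrb and Kit had between 0 and 3 counts per library.

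Among receptors of other pathways, Notch and Wnt genes were widely present. Of 10 Notch receptor and ligand genes 7 were detected (70%, against 48.9% of all symbols). Notch1 (80.8 and 70.9 TPM), Notch3 (25.01 and 21.9 TPM) and Notch2 (17.2 and 14.9 TPM) were expressed. So were Dner (57.7 and 56.9 TPM) and the ligands Jag1 (54.6 and 53.5 TPM) and Dll1 (12.5 and 11.2 TPM). Notch4 sat at the threshold at 1.08 and 1.09 TPM. Dll3 straddled it at 0.846 and 1.02 TPM, Dll4 had 12 and 14 counts and Jag2 had 7 and 9. Of 15 Wnt receptor genes 11 were detected, led by Fzd1 (78.7 and 78.4 TPM) and Lrp5 (43.3 and 40.2 TPM), with Fzd6 and Fzd8 at 0. Of 13 TGF-beta and BMP receptors 10 were detected, led by Bmpr1a (43.7 and 42.9 TPM). Of 20 guidance receptors 15 were detected, led by Plxnb2 (171 and 163 TPM), and Dcc was at 0. Of 20 cytokine receptors 15 were detected, led by Tnfrsf1a (88.6 and 91.7 TPM) and Tnfrsf12a (92.8 and 79.6 TPM), whose ranges overlap. The shared subunit Il6st (36.7 and 33.6 TPM) was present with Lifr (27.8 and 25.1 TPM) and Cntfr (28.5 and 26.6 TPM).

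Receptors of fast neurotransmission were rare. Of 24 glutamate receptor genes Grik5 (19.5 and 17.3 TPM), Grm5 (17.4 and 15.0 TPM) and Gria2 (8.43 and 8.31 TPM) were detected, and 10 were at 0. Grin1 straddled the threshold at 1.02 and 0.842 TPM. Of 18 GABA receptor genes 4 were detected, among them Gabrg1 (13.2 and 14.8 TPM), Gabbr1 (12.9 and 12.6 TPM) and Gabra2 (10.1 and 8.93 TPM), and 11 were at 0. Of 49 nuclear receptors 23 were detected (46.9%, close to the 48.9% of all symbols). They were led by the thyroid hormone receptor Thra (90.6 and 84.0 TPM), while Thrb had 0 and 1 counts. The steroid receptors Esr1, Esr2 and Pgr had at most 2 counts in a library, whereas the glucocorticoid receptor Nr3c1 stood at 15.9 and 16.01 TPM.

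Some ligands and receptors of the same pair were present together and others were not. Ptn, a heparin-binding growth factor, was the highest of 44 listed ligands at 519 and 532 TPM (mean 525 ± 9.30, SD, n = 2), and its receptor Ptprz1 stood above 130 TPM in both libraries. Hbegf (28.2 and 26.6 TPM) and Tgfa (8.65 and 8.44 TPM), ligands of Egfr, were detected, while Areg and Ereg were at 0. Bdnf (8.31 and 9.54 TPM) was detected with its receptor Ntrk2, and Ntf3 was at 0. Vegfa stood at 116 and 118 TPM while its receptor Kdr was at 0 and Flt1 stood at 0.633 and 0.502 TPM. Pdgfa stood at 25.9 and 20.8 TPM with Pdgfra at 1 count in each library. In the other direction, Cxcr4 was detected with its ligand Cxcl12 at 0, and Igf1r (22.5 and 20.2 TPM) with Igf1 at 0 and Igf2 at 2 and 6 counts. The labels do not describe the culture medium, so ligands supplied from outside are not known here.

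**Figure D5:**
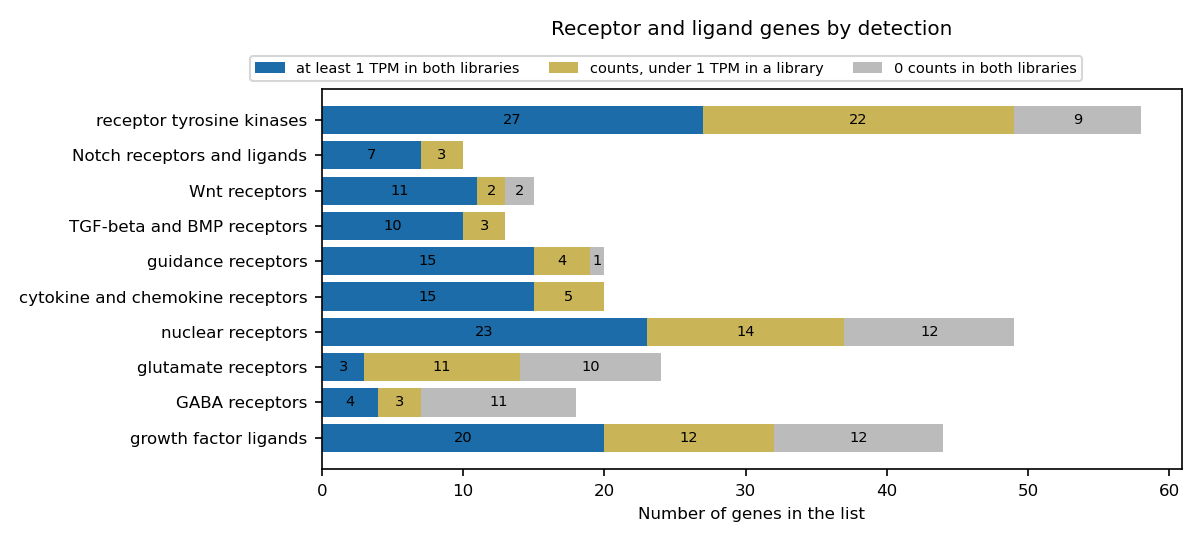
Number of genes (x axis) in 9 receptor lists and 1 ligand list that were at 1 TPM or more in both sgGal4-4 libraries (blue), had counts but fell under 1 TPM in a library (yellow) or had 0 counts in both (grey). Of 58 receptor tyrosine kinases 27 are blue, and of 24 glutamate receptors 3 are.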

How the data were processed

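Libraries were made from total RNA of stem-like medulloblastoma cells with a kit for mRNA, per the labels' protocols, which give no information on strand. The submitters' processing notes name the aligner STAR and the genome GRCm38 (mm10). How reads were counted, on which annotation and with which STAR version is not given in the sources used here. Per the file headers, the deposited tables hold counts, FPKM and TPM by RefSeq transcript. The deposited counts are whole numbers, the deposited TPM were used as the level, and the deposited FPKM served only to recover transcript lengths from counts.

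The tables hold 33984 rows for 24063 symbols. Transcripts of a gene each count the reads they share, so 1 row was kept per symbol, the one with the highest total count over all 6 libraries. Because TPM are scaled over all rows, the kept rows sum to 702310 and 702019. Detection means 1 TPM in both sgGal4-4 libraries. No test was made, since 1 group of 2 libraries is described, and values are means with an SD where one is given (n = 2). Gene positions are those of RefSeq on GRCm38.p6, which held the transcript accession of 23755 symbols and the symbol alone of 203 more. Promoter windows and miRNAs come from RefSeq tables of the same build, and exon overlaps of miRNA rows from GENCODE.

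The values of some list members are not reported here, though they count in their lists. The gene lists and this group of libraries were chosen with earlier results of these data known. The rule for named genes took the 30 highest genes and the 10 highest noncoding rows. It took from each list up to 8 highest members and those at 0 or under 1 TPM. It also took the Hedgehog genes, the 20 highest factors and, above 10 TPM, the 6 highest and 6 lowest ratios between the libraries. Further members of these lists, genes named for a comparison within a family or pair and the Y-linked genes were chosen after their values were seen. The row choice, the matching of list members and the CpG ratio were tested on simulated data. Alternatives were the row choice, summed rows, recomputed TPM, other thresholds and each library alone, and rows of at least 200 bases were added after seeing the data. Python 3.11.15, pandas 2.3.3, numpy 2.4.6 and matplotlib 3.10.9 were used.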

Additional observations from a re-analysis of the deposited data

How the results depend on the processing

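No paired analysis was possible because only 1 group of 2 libraries was described. The number of symbols detected stayed between 9660 (5 TPM) and 14771 (1 count in both libraries). The counts of detected Hedgehog targets, granule neuron progenitor, neural stem cell and astrocyte markers stayed within 1.5 times their value under all alternatives run. Detected receptor tyrosine kinases numbered 42 at 1 count in both libraries, in place of 27. Detected Hox genes numbered 3 at 5 TPM, 8 at 10 counts and 14 at 1 count, in place of 5. Ribosomal protein genes took 13 of the 100 highest places when ranked by counts, in place of 50, because short transcripts gain when counts are divided by length. With 1 library alone, symbols detected numbered 11964 to 11976, Hedgehog targets 12, granule progenitor markers 9, stem cell markers 17, astrocyte markers 10, receptor tyrosine kinases 27, Hox genes 5 to 6 and ribosomal genes among the 100 highest 50.

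For 42 named genes, recomputing TPM over the kept rows raised every level 1.42-fold, which rescales all genes alike. Summing rows, which counts shared reads more than once, raised 9 of the 42 by over 1.5 times, from 1.83-fold for Hoxa10 to 4.85-fold for Fgfr3, and the others were Myc, Otx2, Lhx2, Egfr, Fgfr1, Ntrk2 and Cdkn2a. Choosing rows from the sgGal4-4 libraries alone changed none of the 42. Depth limits statements on genes with few counts, and rows under 200 bases limit any ranking by TPM.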

Other observations

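The cells carried RNA of Y-linked genes. Ddx3y, an RNA helicase, stood at 20.6 and 20.5 TPM, Eif2s3y, a translation initiation subunit, at 27.3 and 32.9 TPM, Kdm5d, a histone demethylase, at 11.1 and 11.3 TPM and Uty at 5.04 and 5.87 TPM. Xist, the RNA that silences an X chromosome in female cells, had 6 and 2 counts. These genes were chosen after their values were seen.

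The ratio of replicate 1 to replicate 2 was furthest from 1 in very short rows. Among 8063 symbols with a mean of 10 TPM or more, 18 differed by more than 2-fold. The lowest ratios were those of Snord58b (0.202), Mir6970 (0.263), Snord64 (0.288), Mir1895 (0.297), Snord12 (0.454) and Snord65 (0.459). The highest were those of Mir6902 (6.66), Snora33 (3.25), Snord98 (3.03), Snord99 (2.88), Mir3104 (2.16) and Mir7670 (2.02). All 12 rest on 2 to 33 counts per library. Among rows of at least 200 bases none differed by more than 2-fold, and the 3 past 1.5-fold were 2310068J16Rik (1.76), the nuclear long noncoding RNA Malat1 (1.62, from 9536 and 5943 counts) and Atp5k (1.502), all higher in replicate 1. Across those 7891 symbols the log ratio had a Spearman rho of 0.177 with transcript length, a description across genes that share 2 libraries.

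The letters GACCACCCA, a consensus site of Gli factors, were searched on both strands of the 300-base promoter windows. They were found in 83 of 32851 windows (0.253%) and in none of the 14 windows of 11 Hedgehog target genes. That says only that these letters are not in those windows.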
